A study of Mus musculus with 2 samples.

Results

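The 10 genes described here code for the ubiquitin ligases best known from muscle wasting and for some of their regulators. They are the RING ligases Trim63, Trim54 and Trim55, the F-box proteins Fbxo32, Fbxo30 and Fbxo40, the transcription factors Foxo1 and Foxo3, the secreted growth inhibitor Mstn, and the cell cycle inhibitor Cdkn1a. They were chosen by symbol among the annotated genes of the deposited transcript tables. All 10 had reads in both libraries, among 14900 annotated genes with a read in at least 1 library. Together they held 1616 reads on 78 transcript models in replicate 2 and 2337 reads on 100 transcript models in replicate 1, which was 0.138% of all reads in replicate 2 and 0.155% in replicate 1.

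The material was gastrocnemius, a calf muscle made mostly of fast fibres, from male B6CASTF1/J mice of 18 to 20 months, which are F1 hybrids of the C57BL/6J and CAST/EiJ strains. Total RNA (2 µg per library) with added spike-in RNAs was read as long reads, so that a read can follow 1 RNA molecule over many exons. The labels give 1 group with 2 biological replicates, called replicate 2 and replicate 1, with no treatment, genotype or age to compare. They name separate biosamples but the same donor ID, and whether a biosample is 1 mouse or pooled tissue is not given in the sources used here. All differences below are therefore differences between 2 libraries of the same kind of muscle, at a single age, and they carry no replicate check.

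As background, ubiquitin ligases choose the proteins that are tagged for the proteasome. Trim63 (MuRF1) and its relatives Trim54 (MuRF3) and Trim55 (MuRF2) are RING ligases that sit on the sarcomere and on microtubules, and Trim63 is known for the breakdown of myosin and other thick filament proteins. Fbxo32 (atrogin-1) is the substrate-choosing subunit of an SCF complex. FoxO factors enter the nucleus when insulin and IGF signalling through AKT is low and are known to switch on Fbxo32 and Trim63, and myostatin, the product of Mstn, restrains muscle growth through activin receptors and SMAD factors.

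The 3 MuRF genes share much of their exon layout. Exons 2, 4, 5, 6 and 7 had the same lengths in Trim63, Trim54 and Trim55, at 173, 96, 234, 23 and 125 nt. The 23-nt exon 6 is shown in capitals, with 30 bases of the exons on either side in lower case, because it was left out of some reads of each gene. The sequences come from the GENCODE M21 transcripts, in the direction of transcription, 5′ to 3′. All 3 exons lie on the plus strand of mm10, at chr4:134325045-134325067 in Trim63, chr5:31136753-31136775 in Trim54 and chr3:19671407-19671429 in Trim55, and all are coding.
Trim63: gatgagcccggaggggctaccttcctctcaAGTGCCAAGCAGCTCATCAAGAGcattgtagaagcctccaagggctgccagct
Trim54: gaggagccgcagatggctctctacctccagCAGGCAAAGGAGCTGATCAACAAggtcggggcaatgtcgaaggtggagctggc
Trim55: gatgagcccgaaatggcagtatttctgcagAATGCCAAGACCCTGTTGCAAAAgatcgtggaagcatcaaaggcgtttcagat
Between Trim63 and Trim54, 15 of the 23 bases were the same. Trim55 shared 13 of 23 bases with Trim63 and 13 with Trim54.

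The 96-nt exon 4 of the same genes is shown in capitals because it was left out of Trim54 reads and was in nearly every read of the other MuRF genes. It lies at chr5:31134050-31134145 in Trim54, chr4:134321183-134321278 in Trim63 and chr3:19661785-19661880 in Trim55.
Trim54: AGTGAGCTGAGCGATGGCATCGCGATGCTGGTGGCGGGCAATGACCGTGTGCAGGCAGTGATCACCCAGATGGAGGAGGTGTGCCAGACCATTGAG
Trim63: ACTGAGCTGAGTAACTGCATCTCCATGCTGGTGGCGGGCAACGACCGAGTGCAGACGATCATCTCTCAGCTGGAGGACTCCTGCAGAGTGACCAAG
Trim55: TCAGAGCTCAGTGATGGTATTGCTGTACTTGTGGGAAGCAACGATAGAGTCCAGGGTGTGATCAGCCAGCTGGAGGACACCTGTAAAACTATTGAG
Here 67 of 96 bases were the same between Trim63 and Trim54, 65 between Trim54 and Trim55, and 60 between Trim63 and Trim55.

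The libraries held 1173233 reads in replicate 2 and 1509380 reads in replicate 1, so that 1 read stood for 0.852 CPM (counts per 1000000 reads) in replicate 2 and 0.663 CPM in replicate 1. Levels are reads of a gene per 1000000 reads of its library. Each long read was taken as 1 transcript copy, so levels were not divided by gene length. Whether short and long transcripts were read equally well within a library was not tested. The order of genes by level is therefore one of reads, not of molecules. Spike-in RNAs took 0.590% of reads in replicate 2 and 2.71% in replicate 1. Both libraries had the genes of fast muscle, with summed levels of 46062 CPM in replicate 2 against 38599 CPM in replicate 1 for Myh4, Myh1, Actn3 and Pvalb. Single fast genes went both ways: Myh1 had 5679 CPM in replicate 2 against 1112 CPM in replicate 1 and Myh4 had 29395 CPM in replicate 2 and 22961 CPM in replicate 1, while Actn3 (10196 CPM in replicate 2, 12304 CPM in replicate 1) and Pvalb (792 CPM in replicate 2, 2221 CPM in replicate 1) were lower in replicate 2. The slow fibre markers Myh7, Tnnt1, Tnnc1 and Myl2 summed to 3498 CPM in replicate 2 against 205 CPM in replicate 1, and all 4 were higher in replicate 2. Of the heart markers, Myh6 had 15 reads in replicate 2 against 0 in replicate 1, and Nppa had 0 in both. Summed markers of endothelium (42.6 CPM in replicate 2, 13.9 CPM in replicate 1), Schwann cells (49.4 CPM in replicate 2, 22.5 CPM in replicate 1) and adipocytes (23.01 CPM in replicate 2, 11.9 CPM in replicate 1) were higher in replicate 2. Those of immune cells (13.6 CPM in replicate 2, 33.1 CPM in replicate 1) and satellite cells (19.6 CPM in replicate 2, 29.2 CPM in replicate 1) were lower, and those of fibroblasts were 511 CPM in replicate 2 and 479 CPM in replicate 1. The immune sum rested on Cd74 (16 reads in replicate 2, 49 in replicate 1), since Ptprc had 0 and 1. The satellite cell sum rested on Cdh15 (22 reads in replicate 2, 43 in replicate 1), since Pax7 had 1 read in each library. The part of fibre and cell make-up in the differences below was not tested, and in bulk tissue fewer cells of a type and less RNA per cell cannot be told apart.

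Among the RING ligases, Trim54 and Trim63 were read most. Trim54, on chromosome 5 from 31116712 to 31137630, had 400 reads (341 CPM) in replicate 2 and 768 reads (509 CPM) in replicate 1, a mean of 425 ± 119 CPM (SD, n = 2) and rank 195 among the 14900 genes. Trim63, on chromosome 4 from 134315120 to 134329629, had 286 reads (244 CPM) in replicate 2 and 613 reads (406.1 CPM) in replicate 1, a mean of 325 ± 115 CPM (SD, n = 2) and rank 289. Trim55, on chromosome 3 from 19644474 to 19692421, had 80 reads (68.2 CPM) in replicate 2 and 143 reads (94.7 CPM) in replicate 1, a mean of 81.5 ± 18.8 CPM (SD, n = 2). All 3 MuRF genes were lower in replicate 2 in these values. Among the 39 Trim-named genes with reads, Trim54 was in place 1, Trim63 in place 2 and Trim55 in place 4. In place 3 was Trim35, with 224 CPM in replicate 2 against 258 CPM in replicate 1, followed below Trim55 by Trim28 (74.2 CPM in replicate 2 against 70.2 CPM in replicate 1) and Trim24 (68.2 CPM in replicate 2 against 38.4 CPM in replicate 1). The 3 MuRF genes held 46.1% of all Trim-named reads in replicate 2 and 60.7% in replicate 1.

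Among the F-box genes, Fbxo40 was read more than Fbxo32. Fbxo40, a muscle F-box protein known for targeting the insulin receptor substrate IRS1, lies on the minus strand of chromosome 16 from 36963460 to 36990467. It had 517 reads (441 CPM) in replicate 2 and 321 reads (213 CPM) in replicate 1, a mean of 327 ± 161 CPM (SD, n = 2) and rank 286. Fbxo32, on the minus strand of chromosome 15 from 58175879 to 58214932, had 167 reads (142 CPM) in replicate 2 and 229 reads (152 CPM) in replicate 1, a mean of 147 ± 6.63 CPM (SD, n = 2) and rank 726. The libraries thus lay apart for Fbxo40 and close together for Fbxo32. Fbxo30 (MUSA1), an F-box protein known from mouse muscle as restrained by BMP signalling, lies on chromosome 10 from 11281330 to 11298052 and had 30 reads (25.6 CPM) in replicate 2 and 20 reads (13.3 CPM) in replicate 1. Of 28 Fbxo-named genes with reads, Fbxo40 was in place 1, Fbxo32 in place 3 and Fbxo30 in place 11 by mean level. The 3 most read of the others were Fbxo31 (289 CPM in replicate 2 against 157 CPM in replicate 1), Fbxo3 (139 CPM in replicate 2 against 82.2 CPM in replicate 1) and Fbxo9 (41.8 CPM in replicate 2 against 53.7 CPM in replicate 1). Fbxo40, Fbxo32 and Fbxo30 held 43.9% of all Fbxo-named reads in replicate 2 and 41.5% in replicate 1.

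Of the FoxO factors, Foxo1 was read less than all of these ligases but Fbxo30, and Foxo3 was read less than all of them. Foxo1, on chromosome 3 from 52268336 to 52353221, had 34 reads in each library, which was 29.0 CPM in replicate 2 against 22.5 CPM in replicate 1. Foxo3, on the minus strand of chromosome 10 from 42181841 to 42276755, had 16 reads (13.6 CPM) in replicate 2 and 7 reads (4.64 CPM) in replicate 1. Within a library, Foxo1 had 2.13 reads per Foxo3 read in replicate 2 and 4.86 in replicate 1, and the 95% exact binomial intervals of the Foxo1 share of both genes overlapped, at 53.3% to 80.5% in replicate 2 and 67.9% to 92.9% in replicate 1. Such intervals, here and below, cover counting error only. The other FoxO genes, Foxo4 and Foxo6, had 3 and 17 reads in replicate 2 and 12 and 14 reads in replicate 1.

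Mstn, on chromosome 1 from 53061640 to 53068079, had 78 reads (66.5 CPM) in replicate 2 and 183 reads (121 CPM) in replicate 1, a mean of 93.9 ± 38.7 CPM (SD, n = 2). Cdkn1a (p21), an inhibitor of cyclin-dependent kinases that is also induced in denervated muscle, lies on chromosome 17 from 29090976 to 29100727. It had 8 reads (6.82 CPM) in replicate 2 and 19 reads (12.6 CPM) in replicate 1. Mstn was thus near the level of Trim55, and Cdkn1a near that of Foxo3. Other annotated genes overlap Cdkn1a, Fbxo32, Foxo1, Trim54 and Trim55, antisense to them or within them, and all of these had 0 reads in both libraries.

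**Figure D1:**
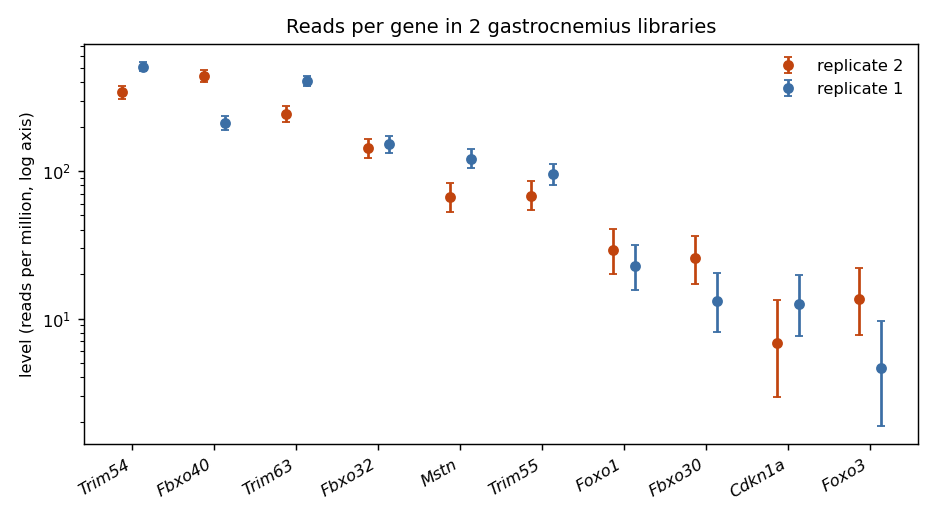
Level of each gene in CPM (log axis) in replicate 2 (left point) and replicate 1 (right point); bars are 95% exact Poisson intervals of the read counts. Trim54, Fbxo40 and Trim63 lie at or above 213 CPM in both libraries, and Cdkn1a and Foxo3 lie below 15 CPM in both.

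By mean level the order was Trim54, Fbxo40, Trim63, Fbxo32, Mstn, Trim55, Foxo1, Fbxo30, Cdkn1a and Foxo3. Neighbours were set apart only where the ranges of the libraries did not overlap, which held for 4 of 9 pairs. Trim54, Fbxo40 and Trim63 overlapped one another in sequence, and Trim63 stood above Fbxo32. Fbxo32 stood above Mstn when all reads were counted, Mstn overlapped Trim55, and Trim55 stood above Foxo1. On annotated transcripts alone Fbxo32 and Mstn overlapped. There Fbxo32 had 116 reads and Mstn 76 in replicate 2, while in replicate 1 Fbxo32 had 146 and Mstn 172. Foxo1 overlapped Fbxo30, and Cdkn1a overlapped Foxo3. Fbxo30 stood above Cdkn1a only narrowly, since its 13.3 CPM in replicate 1 was next to the 12.6 CPM of Cdkn1a in replicate 1, and the counting intervals of these values overlapped (8.09 to 20.5 CPM for Fbxo30 and 7.58 to 19.7 CPM for Cdkn1a).

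Each gene's reads were then compared between the libraries by Fisher's exact test (two-sided, Benjamini-Hochberg adjusted over 9032 genes with at least 10 reads), and a call needed a ratio of 2-fold or more besides an adjusted p below 0.05. Of the 10 genes, 1 was called, Fbxo40, which was 2.07-fold higher in replicate 2 (log2 ratio 1.05, Fisher's exact test, adjusted p = 1.62e-23). Among all tested genes 10.3% were called, 8.24% higher and 2.04% lower in replicate 2, so that 1 of 10 was near the background. The call of Fbxo40 rested on the scaling: its log2 ratio was 0.85 with TMM scaling, 0.78 with DESeq2 size factors and 0.43 when set against genes of like transcript length, and it was not called under any of these 3. The 10 genes had a median log2 ratio of -0.28, beside 0.19 over the tested genes.

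At any fold, 4 of the 10 genes had an adjusted p below 0.05, against 21.4% of all tested genes. Besides Fbxo40 these were Mstn, Trim54 and Trim63, all lower in replicate 2. The 4 genes had 261 to 1168 reads over both libraries. Tested genes include those with as few as 10 reads, where the test resolves less, so these shares are not matched for read depth. Mstn had a log2 ratio of -0.86 (Fisher's exact test, adjusted p = 6.76e-05), and it passed the 2-fold minimum with TMM scaling (-1.05), with DESeq2 size factors (-1.12) and against genes of like length (-1.02). Trim63 had a log2 ratio of -0.73 (Fisher's exact test, adjusted p = 1.17e-11) and passed the 2-fold minimum only with DESeq2 size factors (-1.003). Trim54 had a log2 ratio of -0.58 (Fisher's exact test, adjusted p = 1.30e-09) and passed it under no setting. Trim55 did not pass at the main scaling, with a log2 ratio of -0.47 and an adjusted p of 0.0750 by Fisher's exact test. Its adjusted p fell below 0.05, still short of 2-fold, with TMM scaling (-0.66, adjusted p = 0.00625), with DESeq2 size factors (-0.73, adjusted p = 0.00204) and against genes of like length (-0.63, adjusted p = 0.018), all by Fisher's exact test.

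The other 5 genes did not pass at the main scaling. Fbxo32 had a log2 ratio of -0.09 (Fisher's exact test, adjusted p = 0.767), and its sign turned with the reads counted, to 0.03 on annotated transcripts alone. Against genes of like length Fbxo32 was lower in replicate 2, at -0.83 (adjusted p = 3.05e-07, the same test), though short of 2-fold. Foxo1 had a log2 ratio of 0.35, which became -0.37 against genes of like length. Fbxo30 (0.90), Foxo3 (1.38) and Cdkn1a (-0.80) had 50, 23 and 27 reads over both libraries, and at this depth ratios of this size were not resolved.

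Ratios of 2 genes within a library need no scaling between libraries, but a shift with transcript length stays in them. The median log2 ratio of genes of like length was 0.62 for Fbxo40, -0.10 for Trim63 and -0.14 for Trim54. It was 0.75 for Fbxo32 and 0.16 for Mstn. The part of length in the pair ratios was not tested. Fbxo40 had 1.81 reads per Trim63 read in replicate 2, against 0.524 in replicate 1. As a share of both genes' reads, Fbxo40 held 64.4% in replicate 2 (95% exact binomial interval 61.0 to 67.7%) and 34.4% in replicate 1 (31.3 to 37.5%). Which of these ligases was read more thus differed between the libraries, and the same held for Fbxo40 and Trim54, at 1.29 Fbxo40 reads per Trim54 read in replicate 2 and 0.418 in replicate 1. Fbxo32 had fewer reads than Trim63 in both, at 0.584 per Trim63 read in replicate 2 and 0.374 in replicate 1. Fbxo32 had 2.14 reads per Mstn read in replicate 2 and 1.25 in replicate 1. On annotated transcripts alone Mstn had more reads than Fbxo32 in replicate 1, at 172 against 146.

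Transcript length moved with these ratios. Over all genes, the median log2 ratio was -0.53 in the bin of shortest transcripts and 0.75 in the bin of longest transcripts, of 20 bins. Fbxo40, with a 5137-nt transcript, belongs to a bin with a median of 0.62, while Trim54 (1434 nt) and Trim63 (1886 nt) belong to bins with medians of -0.14 and -0.10. Fbxo32 (6976 nt) and Foxo1 (8665 nt) lay below their bin's median of 0.75, and Mstn (2705 nt) and Trim55 (2595 nt) lay below theirs, 0.16. Of the 10 genes, 3 lay above the median of their length, Fbxo40, Fbxo30 and Foxo3. The part of read length or RNA quality in the ratios was not tested beyond the centring given above.

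**Figure D2:**
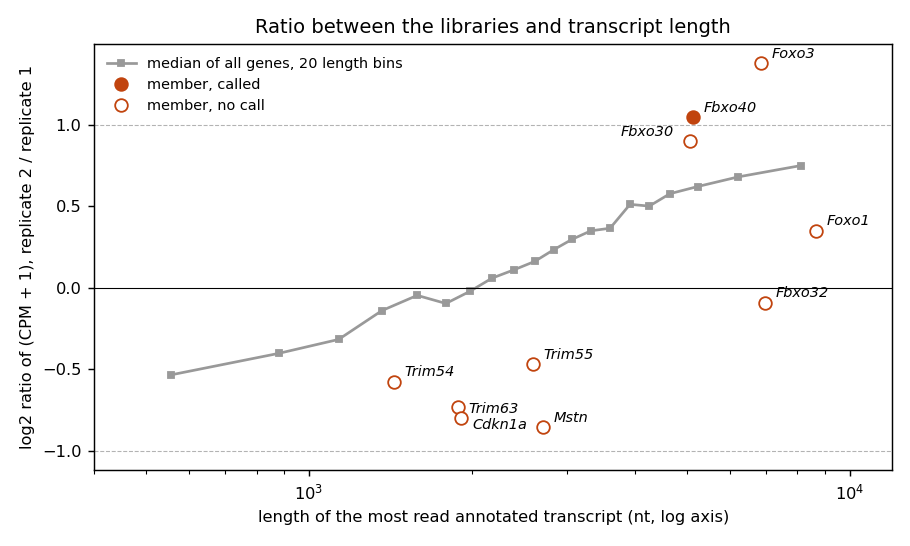
log2 ratio of CPM + 1 (replicate 2 over replicate 1) against the nt length of the main annotated transcript (log axis) for the 10 genes, with the median of all genes in 20 length bins in grey and dashed lines at a 2-fold ratio. The grey line climbs with length, from -0.53 to 0.75, and Fbxo40, the only called gene (filled), lies above it, while Fbxo32 and Foxo1 lie below it.

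Most reads of these genes followed an annotated transcript. TALON sorts models into annotated transcripts, incomplete models that hold a stretch of an annotated intron chain (ISM), new combinations of annotated splice sites (NIC), models with a splice site that the annotation lacks (NNC), and genomic models, which are mostly unspliced. Annotated transcripts held 83.8% of the 10 genes' reads in replicate 2 (95% exact binomial interval 82.0 to 85.6%) and 85.7% in replicate 1 (84.2 to 87.1%), beside 60.8% of reads of all genes in replicate 2 and 64.2% in replicate 1. Models with a new splice site held 4.70% in replicate 2 and 3.00% in replicate 1, beside 22.3% over all genes in replicate 2 and 18.9% in replicate 1. Shares over all reads give highly read genes more weight. Over single genes with 20 or more reads per library, the median annotated share was 83.5% in replicate 2 and 81.4% in replicate 1. The annotated share could be tested for 8 of the genes, all but Cdkn1a and Foxo3, and 0 differed between the libraries by Fisher's exact test, none at an unadjusted p below 0.05 either, against 1.65% called among 4657 genes (1.29% higher and 0.365% lower in replicate 2).

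**Figure D3:**
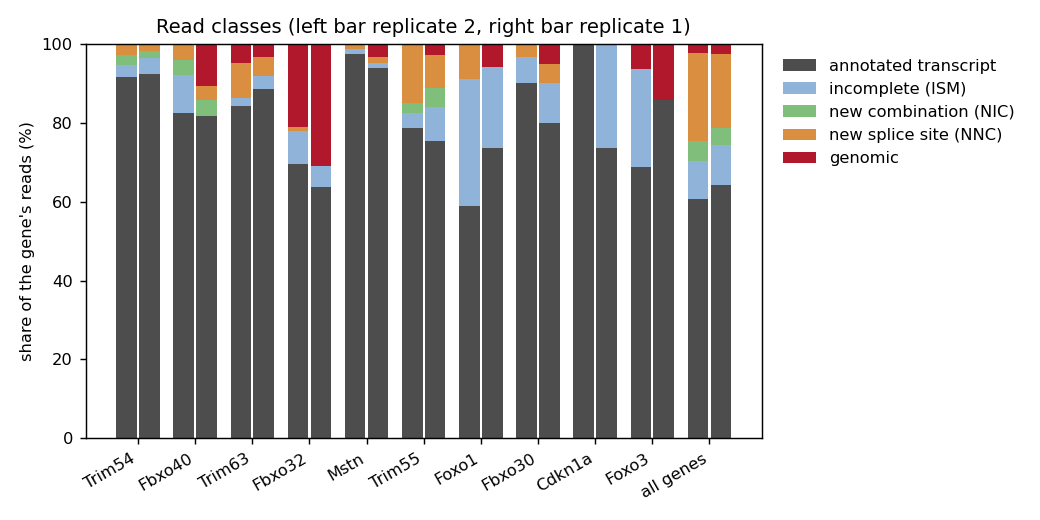
Share of each gene's reads (%) by read class, left bar replicate 2 and right bar replicate 1, with all genes at the right end. Annotated transcripts (dark grey) hold most reads of each gene, and genomic models (red) reach 20.96% of Fbxo32 reads in replicate 2 and 31.0% in replicate 1.

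In each gene 1 annotated transcript held most reads. Trim54-201 held 91.5% of Trim54 reads in replicate 2 and 92.3% in replicate 1 (91.9 ± 0.578%, SD, n = 2), and Mstn-201 held 97.4% of Mstn reads in replicate 2 and 94.0% in replicate 1. Trim63-202 held 84.3% in replicate 2 and 88.4% in replicate 1, while the other coding form Trim63-201 had 0 reads in replicate 2 against 1 in replicate 1. Trim55-201 held 77.5% in replicate 2 and 74.8% in replicate 1. Fbxo30-202 held 27 of 30 reads in replicate 2 and 16 of 20 in replicate 1. Foxo1-201, the gene's sole annotated transcript, held 20 of 34 reads in replicate 2 and 25 of 34 in replicate 1, and most of the rest were incomplete. Foxo3-203 held 11 of 16 reads in replicate 2 and 5 of 7 in replicate 1, out of 5 annotated transcripts. Cdkn1a-201 held 8 of 8 reads in replicate 2 and 14 of 19 in replicate 1, and the other 5 reads were a single-exon model of its last exon. The share of the main transcript was testable in 8 genes, and 0 differed between the libraries by Fisher's exact test, with 0 at an unadjusted p below 0.05, against 2.58% called among 4657 genes.

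Fbxo32 had the highest share of genomic reads among the 10 genes in both libraries. Its only annotated transcript has 9 exons and ends in a 5677-nt last exon, at chr15:58175879-58181555. Fbxo32-201 held 116 of 167 reads (69.5%) in replicate 2 and 146 of 229 (63.8%) in replicate 1. Genomic single-exon models held 35 reads (20.96%, 95% exact binomial interval 15.1 to 27.9%) in replicate 2 and 71 reads (31.0%, 25.1 to 37.4%) in replicate 1. Of these, 34 in replicate 2 and 68 in replicate 1 lay on models inside the 3′ untranslated part of that last exon. The annotated transcript alone gave 97.8 CPM as the mean of both libraries, beside 147 CPM with all reads. Where the RNA behind such reads ended was not tested. Genomic models held 3.09% of the 10 genes' reads in replicate 2 and 5.95% in replicate 1, beside 2.30% and 2.47% over all genes. The shares of the 10 genes are not of like models. Single-exon reads of the last exon of Fbxo40 were classed as genomic in replicate 1 (34 reads) but as incomplete in replicate 2 (45 reads). In Trim54, which ends in a 152-nt last exon, 0 reads were single-exon in either library.

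Fbxo40 also had reads at its 3′ end. Single-exon models of its 2826-nt last exon held 45 reads in replicate 2 and 34 reads in replicate 1, classed as incomplete in replicate 2 and as genomic in replicate 1. The class labels thus differed between the libraries for unspliced models of the same exon. The main form Fbxo40-201 held 352 of 517 reads (68.1%) in replicate 2 and 207 of 321 (64.5%) in replicate 1. Fbxo40-203, annotated as a retained intron form, held 73 reads (14.1%) in replicate 2 and 54 reads (16.8%) in replicate 1. Its only intron is also the last intron of Fbxo40-201, so a read of Fbxo40-201 that stops early and holds that intron alone has the same chain, and the 2 cannot be told apart here.

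Of 117 distinct models of the 10 genes, matched between libraries by their introns, 53 occurred in both libraries and 48 had 1 read in all. Several unannotated models recurred. In Fbxo40, the 30-nt exon 2, at chr16:36978749-36978778 on the minus strand, was left out cleanly in 16 reads of replicate 2 and 10 reads of replicate 1. The last 3 bases of that exon are the annotated start codon, ATG, so these models lack it. Counting all reads that span it, exon 2 was absent from 20 of 392 reads (5.10%, 95% exact binomial interval 3.14 to 7.77%) in replicate 2 and 11 of 231 reads (4.76%, 2.40 to 8.36%) in replicate 1, a mean of 4.93 ± 0.240% (SD, n = 2). The libraries thus gave nearly the same share. Another Fbxo40 model lengthened exon 1 by 103 nt, in 14 reads of replicate 2 and 9 of replicate 1, and one more left out the 1917-nt exon 3 in 3 reads of each library.

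In the MuRF genes the short exon 6 was left out together with a moved splice site next to it. In Trim63, 1 model without exon 6 had 19 reads in replicate 2 against 19 in replicate 1, and exon 5 ran on for 18 nt, from chr4 134323238 to 134323255. In Trim54, 5 reads in replicate 2 against 3 in replicate 1 lacked exon 6 and began exon 7 earlier by 18 nt, from chr5 31136870 to 31136887. In Trim55, 8 reads in replicate 2 against 6 in replicate 1 lacked it and began exon 7 earlier by 25 nt, from chr3 19671505 to 19671529. The net change was -5 nt in Trim63 and Trim54 and 2 nt in Trim55, none a multiple of 3. The added lengths of 18, 18 and 25 nt are close to the 23 nt of the lost exon. Read sequences were not used here, so whether these reads hold the bases of exon 6 aligned beside a neighbouring exon was not tested.

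**Figure D4:**
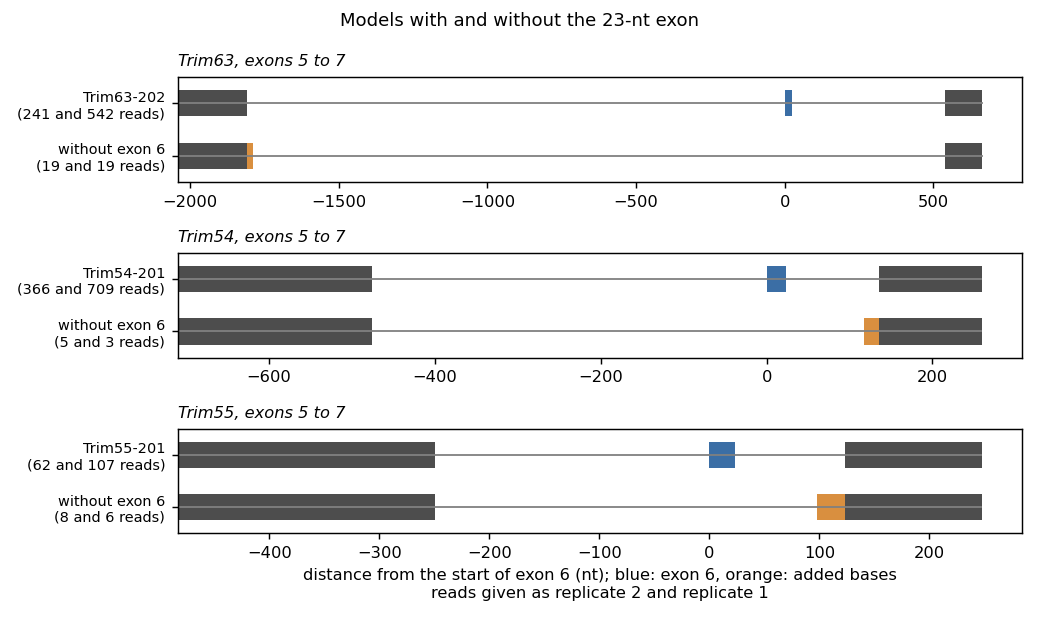
Exons 5 to 7 of the main model and of the recurrent model without exon 6 in Trim63, Trim54 and Trim55, to scale within each panel, with position in nt from the start of exon 6; read numbers are given for replicate 2 and then replicate 1. The added bases (orange) follow exon 5 in Trim63 and precede exon 7 in Trim54 and Trim55.

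Over all reads that span the exon, Trim63 lacked exon 6 in 20 of 272 reads (7.35%, 95% exact binomial interval 4.55 to 11.1%) in replicate 2 and in 21 of 589 reads (3.57%, 2.22 to 5.40%) in replicate 1, a mean of 5.46 ± 2.68% (SD, n = 2). Trim54 lacked it in 5 of 395 reads (1.27%, 0.412 to 2.93%) in replicate 2 and in 4 of 756 reads (0.529%, 0.144 to 1.35%) in replicate 1. Trim55 lacked it in 8 of 78 reads (10.3%, 4.53 to 19.2%) in replicate 2 and in 8 of 133 reads (6.02%, 2.63 to 11.5%) in replicate 1. The share was thus higher in replicate 2 in all 3 genes, with intervals that overlapped between the libraries in each. In both libraries Trim54 had the lowest share of the 3 and Trim55 the highest, and the intervals of Trim54 lay below those of Trim55. Only 1 read, of Trim55 in replicate 1, left out exon 6 with both neighbouring sites unmoved.

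Exon 4 behaved otherwise. In Trim54 it was absent from 8 of 392 spanning reads (2.04%) in replicate 2 and from 15 of 748 (2.01%) in replicate 1, a mean of 2.02 ± 0.0251% (SD, n = 2). Of these reads, 7 in replicate 2 and 11 in replicate 1 joined exons 3 and 5 at their annotated sites, which removes 96 nt, a multiple of 3. In Trim63 exon 4 was absent from 0 of 270 reads in replicate 2 and 0 of 581 reads in replicate 1, with upper 95% exact limits of 1.36% and 0.633%. In Trim55 it was absent from 0 of 77 reads in replicate 2 and 0 of 132 in replicate 1, with upper limits of 4.68% and 2.76%. Each limit lies above the Trim54 share of the same library, so neither library alone excluded such a share in Trim55.

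**Figure D5:**
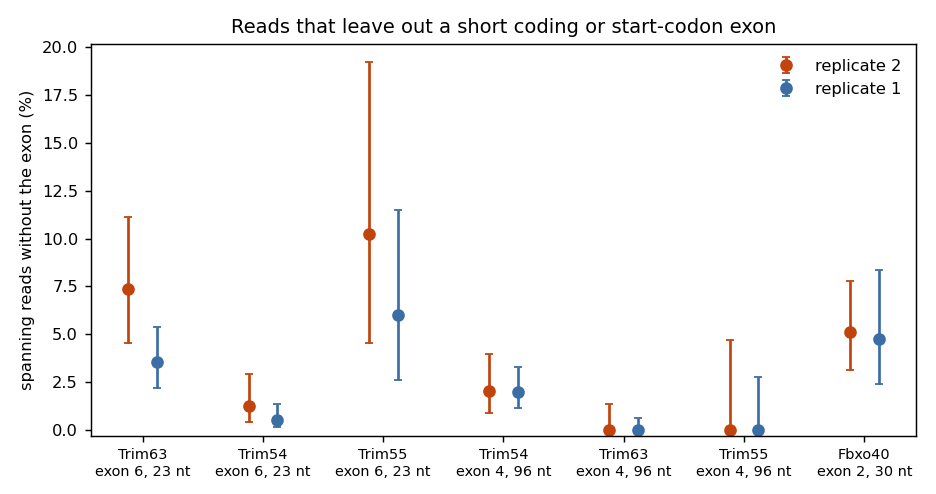
Percent of spanning reads that lack an exon, for exons 6 and 4 of the MuRF genes and exon 2 of Fbxo40, in replicate 2 (left) and replicate 1 (right), with 95% exact binomial intervals. Trim63 and Trim55 exon 6 and Fbxo40 exon 2 lie between 3.57% and 10.3%, and exon 4 is at 0% in Trim63 and Trim55.

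Other recurrent models were rarer. In Trim63, exon 8 began 5 nt later in a model with 6 reads in replicate 2 against 5 in replicate 1. In Trim54, 3 exons (441 nt, a multiple of 3) were left out in 1 read of replicate 2 and 4 of replicate 1. In Trim55, a model with an added 88-nt exon, at chr3:19675760-19675847, had 2 reads in replicate 2 and 4 in replicate 1. Another, without a 288-nt exon, had 2 reads in replicate 2 and 1 in replicate 1. A model with both changes had 2 reads, in replicate 1 alone, and an incomplete model with the 88-nt exon had 1 read there. Mstn, Fbxo30, Foxo1, Foxo3 and Cdkn1a, with 2 to 5 models each, had no unannotated spliced form with more than 3 reads other than incomplete ones.

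Promoter windows of 300 bases (250 before to 50 after the start site) were given by RefSeq on GRCm38.p6, the assembly of mm10, for 8 of the 10 genes, in 10 windows. Fbxo32 and Trim55 had no window and were not searched. They were searched for GTAAACA, the core motif that FoxO and other forkhead factors bind, on both strands (TGTTTAC on the other). Only 1 of the 10 windows held it, that of Trim63, and over all 32851 windows 1199 (3.65%) did. The Trim63 window, chr4:134314870-134315169 on the plus strand, is shown because the start site in it is also the start of Trim63-202, the form that held most reads. The motif is in capitals, 194 bases before the start site.
Trim63 promoter: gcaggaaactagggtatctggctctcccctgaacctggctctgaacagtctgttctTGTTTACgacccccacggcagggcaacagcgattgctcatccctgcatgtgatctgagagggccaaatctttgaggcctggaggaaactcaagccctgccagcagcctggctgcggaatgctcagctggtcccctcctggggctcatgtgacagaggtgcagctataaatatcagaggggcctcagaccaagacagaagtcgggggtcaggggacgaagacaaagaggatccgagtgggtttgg

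For 3 of the genes, the genes with the nearest levels in both libraries were looked up by distance in log2(CPM + 1). For Fbxo32 they were Ndufa9 (distance 0.02), Nfix and Zfp706 (0.04 each). For Trim63 they were Ndufa5 (0.10), Uqcr10 (0.13) and Tmod4 (0.14), and for Foxo1 they were Crnkl1 and Bsdc1, with the same 34 reads in each library, and Rhbdf1. With 2 libraries such likeness is one of level and of a single ratio.

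Other genes of the pathway, 111 in 7 lists, were set beside the 10 genes, and 99 had enough reads for the Fisher test. Of these, 6 were higher in replicate 2, 9 were lower and 84 were not called, with a median log2 ratio of 0.11 beside 0.19 over all tested genes. The 15 calls among 99 genes stand beside the 10.3% called among all genes, and the 9 lower calls beside 2.04%. With length centring 11 pathway genes were called, beside 4.67% of the 8625 genes tested that way.

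Upstream of the FoxO factors, in a list of insulin, activin and glucocorticoid signalling, 2 of 26 tested genes were higher and 2 lower in replicate 2. Irs2, an insulin receptor substrate, had 26 reads in replicate 2 against 3 in replicate 1 (log2 ratio 2.955). Its ratio of CPM alone, without the added 1, was 11.2-fold, with an exact counting interval of 3.42 to 57.6. Nfkbia, the NF-κB inhibitor, had 11 reads in replicate 2 against 39 in replicate 1 (log2 ratio -1.37). The other 2, outside the naming rule and named after their values were seen because the count is small, were the kinase Pdpk1 (25 reads in replicate 2 against 13 in replicate 1) and the glucocorticoid-induced Fkbp5 (13 reads in replicate 2 against 39 in replicate 1). The call of Pdpk1 ended with TMM scaling (adjusted p = 0.0979), with DESeq2 size factors (0.133) and against genes of like length (0.669), all by Fisher's exact test. On annotated transcripts alone the call of Fkbp5 ended and its log2 ratio was 0.13, beside -1.15 on all reads. With no read minimum, which adds tests, the calls of Pdpk1, Fkbp5, Gadd45a and Cdkn2c ended, with adjusted p of 0.0588 to 0.0696 by the same test. The most read gene of the list, the kinase gene Akt2, had 228 reads in replicate 2 against 260 in replicate 1 and was not called. Of 6 FoxO family members and cofactors, 1 was higher, the coactivator Ppargc1a, with 43 reads in replicate 2 against 19 in replicate 1 (log2 ratio 1.47), a call that ended against genes of like length (0.81) and on annotated transcripts alone (1.12).

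Of 21 genes known from mouse muscle to respond to FoxO factors, 2 were higher and 2 lower in replicate 2. The autophagy genes Gabarapl1 (303 reads in replicate 2 against 168 in replicate 1, log2 ratio 1.21) and Ulk1 (110 reads in replicate 2 against 58 in replicate 1, 1.27) were higher. The call of Gabarapl1 ended with DESeq2 size factors (0.94) and on annotated transcripts alone (0.88), and that of Ulk1 against genes of like length (0.65). Ddit4, an inhibitor of mTORC1 signalling, had 0 reads in replicate 2 against 25 in replicate 1. With a floor of 3 reads in place of 0 it was 6.48-fold lower in replicate 2. That value leaves out counting error and is not a lower limit. On annotated transcripts alone Ddit4 fell short of the 10-read minimum and was not tested. Gadd45a, a stress gene, had 2 reads in replicate 2 against 16 in replicate 1, and its call ended against genes of like length. The most read gene of this list, the ubiquitin gene Ubb, had 2032 reads in replicate 2 against 2886 in replicate 1, with a log2 ratio of -0.14 and no call.

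Of 22 partners in ubiquitination, 1 was higher, the ligase Huwe1, with 33 reads in replicate 2 against 19 in replicate 1 (log2 ratio 1.10), and not with TMM scaling (0.91) or DESeq2 size factors (0.84). Huwe1 had no reads on an annotated transcript. It was therefore tested neither on annotated transcripts alone nor against genes of like length. The most read partner, the ligase Wwp1, had 686 reads in replicate 2 against 455 in replicate 1 and missed the 2-fold minimum at 0.95. Of 14 substrates and partners of these ligases, 0 were higher and 3 lower in replicate 2. These 3 were the fast troponin I gene Tnni2 (2063 reads in replicate 2 against 6904 in replicate 1, log2 ratio -1.38), the fast regulatory light chain gene Mylpf (4658 reads in replicate 2 against 16616 in replicate 1, -1.47) and the essential light chain gene Myl1 (6145 reads in replicate 2 against 17256 in replicate 1, -1.13). Against genes of like length Mylpf kept its call (-1.07), while Tnni2 (-0.84) and Myl1 (-0.72) did not. The fast myosin gene Myh4, the most read of the list, had 34487 reads in replicate 2 against 34657 in replicate 1. Scaled to the library it was higher in replicate 2, at a log2 ratio of 0.36, short of 2-fold and not called.

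The list closest to Cdkn1a held cell cycle inhibitors together with p53, cyclins and a cyclin-dependent kinase. Of its 6 tested genes, 0 were higher and 1 was lower in replicate 2. This was the inhibitor gene Cdkn2c (also named for the small count), with 16 reads in replicate 2 against 44 in replicate 1. Cdkn1c was the most read, with 49 reads in replicate 2 against 70 in replicate 1. Among denervation and ageing markers, 0 of 6 were higher and 2 lower in replicate 2. They were Gadd45a, given above, and the myogenic factor gene Myog, with 17 reads in replicate 2 against 56 in replicate 1 (log2 ratio -1.30).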

How the data were processed

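The deposited values were raw counts of long reads per transcript model, 1 table per library, in which models with 0 reads are not listed. Per the files' README texts, the authors counted reads of filtered alignments (mm10, GENCODE M21), and the deposited annotations give TALON as the source of model names. For aligner, platform and versions: not given in the sources used here. Reads were summed per annotated gene and divided by library totals. Fisher's exact tests ran over all genes with at least 10 reads (gene reads) or 20 reads in each library (shares), in Python 3.11.15 with scipy 1.17.1, and were tested on simulated data. Log2 ratios and the 2-fold minimum are of CPM + 1, and the fold values of Fbxo40, Irs2 and Ddit4 are of CPM alone. Alternatives used edgeR 4.0.16 (TMM), DESeq2 1.42.0 (size factors) and centring on the median of 20 length bins. Read ends of annotated models are not observed, since their ends are the annotation's. The pathway genes named were the 12 called with the lowest adjusted p and the most read of each list, plus Fkbp5, Pdpk1 and Cdkn2c, which fall outside this rule and were added after their values were seen. The 10 genes and all lists were chosen with earlier results of these data known. Allele of origin, protein sequences and read sequences were not used here. PCR duplicates could not be removed, so intervals cover counting error only.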

Additional observations from a re-analysis of the deposited data

How the results depend on the processing

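No paired analysis was possible because the samples form 1 group. With 2 libraries, leaving out either leaves no ratio, so that was not run. The number of the 10 genes called between the libraries was 1 as reported, 2 with DESeq2 size factors (Mstn and Trim63) and 4 with no fold minimum. It was 1 with TMM scaling and against genes of like length, but the gene was then Mstn instead of Fbxo40. Over the 9 settings log2 ratios ranged from 0.43 to 1.06 for Fbxo40, -1.12 to -0.81 for Mstn, -1.003 to -0.64 for Trim63, -0.85 to -0.44 for Trim54, -0.83 to 0.06 for Fbxo32 and -0.37 to 0.35 for Foxo1. Of all calls among tested genes, 80.2% were higher in replicate 2 as reported, 54.3% with TMM scaling, 44.9% with DESeq2 size factors and 63.0% with length centring. The cause was not tested. The share tests made 0 calls among the 10 genes under every setting run. Calls among pathway genes were 21 higher and 15 lower with no fold minimum, 9 higher and 8 lower without incomplete and genomic models, and 11 to 15 in all under the other settings. Apart pairs in the order of levels numbered 3 on annotated transcripts alone, beside 4, and Fbxo32 then overlapped Mstn. Foxo3, Cdkn1a and Fbxo30 are limited by their read numbers.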
